A study of Mus musculus with 35 samples.

Results

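Regulatory T cells (Tregs) of visceral adipose tissue (VAT) were set against Tregs of the spleen at Zeitgeber time 12 (ZT12), when the lights went off. The comparison rested on 6 of the 35 libraries of the series, the 3 VAT and 3 spleen libraries that the labels place at ZT12. The other 29 libraries (14 VAT, 15 spleen) came from ZT0, ZT4, ZT8, ZT16 and ZT20 and served to ask whether a tissue difference at lights-off was larger, smaller or opposite to that at the other 5 times. All mice were untreated wild-type C57BL/6 males, retired from breeding at more than 35 weeks of age, in 12 h of light alternating with 12 h of dark. Each library was made from 1000 cells with the CD4+ CD25+ phenotype, purified in 2 successive sorts. Libraries carry the replicate letters A, B and D of the labels, and values per library are given in that order.

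Tregs depend on the transcription factor Foxp3 and restrain other immune cells. Those that settle in visceral fat are known for the nuclear receptor PPARγ, the IL-33 receptor ST2 and amphiregulin, whereas most splenic Tregs recirculate and keep receptors for lymphoid organs. Lights-off opens the active phase of mice, when plasma glucocorticoid is near its daily high, and glucocorticoid receptor targets such as Per1, Tsc22d3 and Dusp1 overlap with the circadian clock and with the immediate early genes that answer acute stimulation.

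3 promoters are shown, of genes described below: Dusp1, the gene whose tissue difference departed from the other times, Per1, a clock gene that glucocorticoid also induces, and Areg, the amphiregulin gene, a VAT Treg product whose spleen value at ZT12 was above that of the other times without passing the test. The windows run from 250 bases before to 50 bases after the RefSeq start on GRCm38.p6, 5′ to 3′ on the gene's strand, at chr17:26508423-26508722 (minus strand), chr11:69098699-69098998 (plus strand, 1 of 2 Per1 windows) and chr5:91139349-91139648 (plus strand). Capitals mark the E-box CACGTG, the element read by the clock activators CLOCK and BMAL1, and the cAMP response element TGACGTCA. Both motifs read the same on either strand, and they do not overlap.
Dusp1: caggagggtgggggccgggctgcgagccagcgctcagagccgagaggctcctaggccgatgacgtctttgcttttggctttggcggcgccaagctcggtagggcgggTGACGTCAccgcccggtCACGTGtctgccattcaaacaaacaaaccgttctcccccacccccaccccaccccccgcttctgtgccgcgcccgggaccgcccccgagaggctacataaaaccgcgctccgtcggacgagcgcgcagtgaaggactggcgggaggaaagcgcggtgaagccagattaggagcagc
Per1: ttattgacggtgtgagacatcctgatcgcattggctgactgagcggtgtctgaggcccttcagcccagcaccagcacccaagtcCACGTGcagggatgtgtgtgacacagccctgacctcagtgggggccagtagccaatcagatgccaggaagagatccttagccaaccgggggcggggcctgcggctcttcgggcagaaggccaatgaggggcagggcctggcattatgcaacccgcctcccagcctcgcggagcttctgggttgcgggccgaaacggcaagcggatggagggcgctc
Areg: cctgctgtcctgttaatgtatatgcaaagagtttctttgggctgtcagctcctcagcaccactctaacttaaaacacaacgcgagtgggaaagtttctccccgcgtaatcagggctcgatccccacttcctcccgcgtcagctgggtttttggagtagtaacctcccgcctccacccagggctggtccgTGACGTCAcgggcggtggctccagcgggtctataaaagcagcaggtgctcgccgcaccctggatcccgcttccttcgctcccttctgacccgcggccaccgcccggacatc

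Of 32851 RefSeq promoter windows of this length, 7.15% held the E-box and 1.79% held the cAMP response element. The Dusp1 window held 1 of each, the Per1 window shown held 1 E-box, and the Areg window held 1 cAMP response element. The Per1 window not shown (chr11:69099902-69100201) held neither. The windows of Tsc22d3, Il7r and Cxcl2 held neither run of letters. These matches describe the sequence and were not measured as binding.

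The ZT12 libraries held 2645627 to 5204898 counts. VAT libraries of ZT12 were the deeper ones, at 3220775 counts or more, and no spleen library of ZT12 exceeded 2858234. No pair of ZT12 replicates agreed within sampling noise (chi-square per gene from 6.21 to 16.9 over 6 pairs). Whether replicates are separate animals is not in the labels. The p-values then reflect only how far these samples vary, and that variation may be technical. Levels are CPM, counts scaled to a common library size with TMM factors. Differences are log2 VAT minus spleen ± standard error, and adjusted p-values come from edgeR's quasi-likelihood test with Benjamini-Hochberg adjustment over 15910 genes.

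Treg markers were present in both tissues. Cd4 and Il2ra among them encode antigens used in the sort, so their presence is not independent evidence of identity. The 7 Treg markers (Foxp3, Il2ra, Ctla4, Ikzf2, Tnfrsf18, Cd4, Cd3e) summed to 6069 to 7611 CPM in the VAT libraries and 2952 to 3270 CPM in the spleen libraries, and none of them was at 0. Foxp3 (chrX:7573644-7595245) was at 633, 585 and 837 CPM in VAT and 500, 494 and 493 CPM in spleen. The groups did not overlap, and the difference of 0.47 ± 0.12 (adjusted p = 0.00218) was close to the 0.45 found over the other times. Scaled by library totals it was 0.15 and did not pass (adjusted p = 0.297). Il2ra, which encodes the sorting antigen CD25, was also higher in VAT, at 751, 740 and 950 CPM against 351, 359 and 354 CPM. Cd3e went the other way without overlap, at 176, 157 and 138 CPM in VAT and 258, 309 and 291 CPM in spleen.

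Markers of other cells were not balanced between the tissues. The 9 B cell markers summed to 149 to 177 CPM in VAT and 1459 to 1861 CPM in spleen, most of it the immunoglobulin gene Ighm (mean 129 against 1576 CPM), while Pax5 and Fcer2a were at 0 in VAT. The 10 macrophage or monocyte markers summed to 6.94 to 16.8 CPM in VAT and 28.2 to 47.4 CPM in spleen. At the other times these sums ran from 7.61 to 24.2 CPM in VAT and from 44.2 to 111 CPM in spleen. Adgre1 and C1qc were at 0 in VAT, and Fcgr1 was at 0 in both tissues. Cd68 (means 7.82 against 3.91 CPM) and Cd14 (1.15 against 0.66 CPM) were higher in VAT. The other members, such as Lyz2 (0.57 against 11.9 CPM), were lower in VAT. The 7 neutrophil markers summed to 152 to 457 CPM in VAT and 7.82 to 10.3 CPM in spleen. In VAT this was almost only the protease gene Mmp9 (mean 328 CPM), and the neutrophil genes S100a8, Retnlg and Cxcr2 were at 0. The 10 stromal or mesothelial markers reached 204 to 219 CPM in VAT against 34.2 to 41.4 CPM in spleen. In VAT this was almost only Gsn (mean 111 CPM) and Lrrn4 (mean 94.3 CPM). No other member had a mean above 1.33 CPM in either tissue. Of those, Col1a1, Col1a2, Dcn and Lum were lower in VAT, Col3a1, Pdgfra and Upk3b were higher, and Msln was at 0 in both. The 6 adipocyte markers, at 12 to 17.8 CPM in VAT and 22.1 to 28.5 CPM in spleen, were mostly Lipe, and Adipoq, Plin1 and Retn were at 0 in VAT. The 6 endothelial markers summed to 30.4 to 54.5 against 264 to 335 CPM, mostly Pecam1, which T cells also express. The 7 NK cell or ILC markers summed to 18 to 36.4 CPM in VAT and 3 to 3.76 CPM in spleen. In VAT this was mostly Il5 and Kit (means 15.1 and 11.3 CPM), with Ncr1 and Eomes at 0. The part of these cells in the results that follow was not tested. In bulk libraries, fewer cells of a kind and less RNA per cell cannot be told apart.

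At lights-off the tissues differed in 4474 of 15910 genes (28.1%). Of these, 2349 (14.8%) were higher in VAT and 2125 (13.4%) were lower, and 1545 and 1428 of them differed by at least 2-fold. The shares of 14.8% and 13.4% are those to set beside the counts of list members given below. Scaled by library totals instead, 1620 were higher and 3880 lower, because that scaling moved the median difference of all genes from -0.09 to -0.41. Counts were alike at the other times with 3 libraries in both tissues: 2351 to 2669 genes were higher and 2122 to 2214 lower at ZT0, ZT4, ZT8 and ZT16. Of the 4474 genes, 4221 also differed over the other 5 times, and 31 had the opposite sign there whether or not they passed. Across all genes the log2 differences at ZT12 and over the other times had a correlation of 0.82, which rose to 0.95 for the 9642 genes of at least 10 CPM. These values share the fit and the abundance of each gene and are given as a description.

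**Figure D1:**
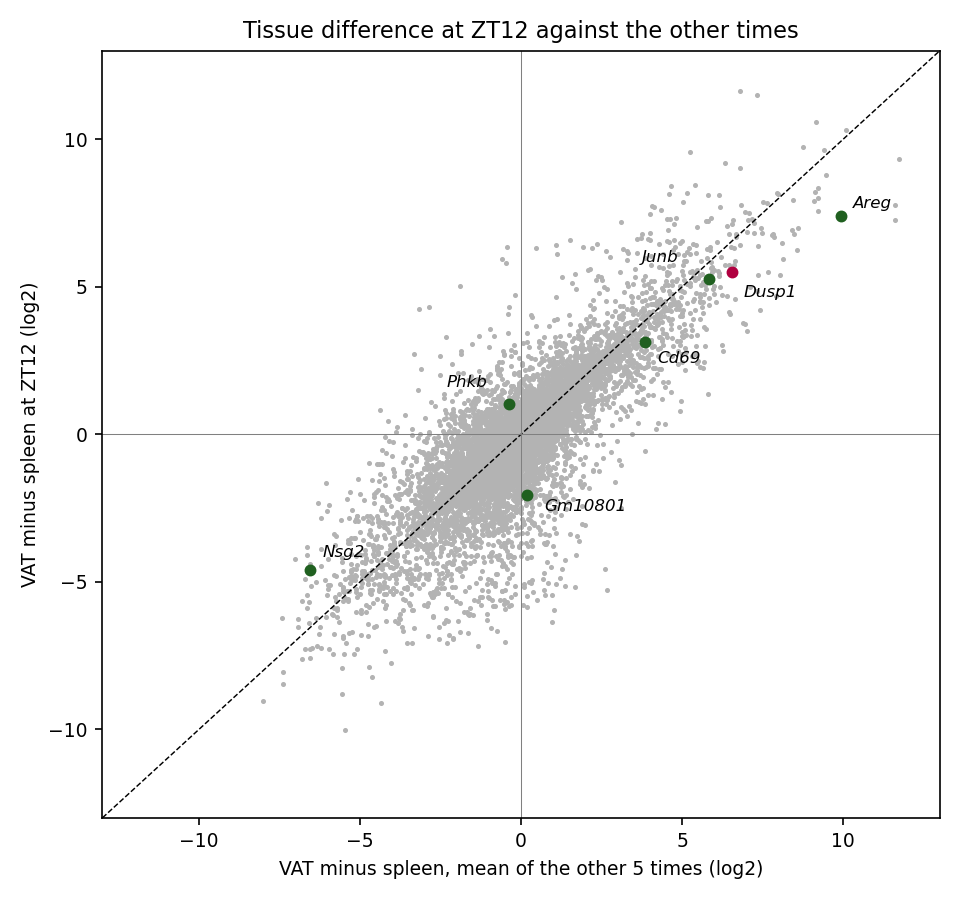
Each grey point is 1 of 15910 genes, placed by its log2 VAT minus spleen difference over the other 5 times (horizontal) and at ZT12 (vertical), with the dashed line marking equal differences. Dusp1 (red) lies below the line at 5.51 against 6.53; the genes in green are named in the text and did not pass the test of a change in tissue difference, and fitted values of genes at 0 in a group depend on the prior count.

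The genes with the largest differences at lights-off included, on the VAT side, products and receptors of inflammation and hormone processing. Cyp11a1 (chr9:58006411-58027023), the enzyme that starts steroid synthesis from cholesterol, was at 93.2, 172 and 53.8 CPM in VAT and had no count in any spleen library of ZT12. Against a floor of 3 counts over the 3 spleen libraries, it was at least 330-fold higher in VAT. Spleen libraries of the other times reached 5.41 CPM, with a median of 0.172 CPM. On the same floor Iqcn was at least 301-fold higher (115, 109 and 65.9 CPM), Calca, which encodes calcitonin and CGRP, at least 161-fold, and the chemokine gene Cxcl1 at least 133-fold. Gm5979 and Wipf3 followed at no less than 81.7-fold and 78.6-fold. Calca and Wipf3 were uneven between VAT libraries, at 19.8, 114 and 22.6 CPM and at 52.8, 5.05 and 18 CPM.

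Genes of this group with some spleen counts had measurable ratios. Cxcl2, a chemokine for neutrophils, was at 884, 725 and 1189.6 CPM in VAT and 1.33, 1.95 and 0.94 CPM in spleen, a difference of 9.34 ± 0.37 (adjusted p = 2.09e-18). Pcsk1, a protease that matures peptide hormones, was at 304, 489 and 666 CPM against 0.334, 0.651 and 0.627 CPM (9.73 ± 0.72). Ccr1, an inflammatory chemokine receptor, was at 489, 351 and 486 CPM against 0, 2.61 and 0.313 CPM (8.78 ± 0.62). The transcript 1700061F12Rik had 1 spleen count against 520 in VAT, a ratio of 429 with a 95% counting interval from 76.7 to 16995. In each of these 4 genes the lowest VAT library lay far above the highest spleen library. Intervals and floors cover counting error only.

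On the spleen side stood Cxcr5 (chr9:44511787-44561877), the receptor that draws cells into B cell follicles. It was at 118, 141 and 121 CPM in spleen and had 1 count in the VAT libraries of ZT12 (0, 0.266 and 0 CPM), a ratio of 1418 with a counting interval from 254 to 56050. The 14 VAT libraries of the other times ran from 0 to 9.37 CPM with a median of 3.29, so the ZT12 VAT libraries were at the bottom of the VAT range. The Cxcr5 change in VAT at ZT12 did not pass (adjusted p = 0.251). Dtx1, a Notch pathway ubiquitin ligase, had 1 VAT count (ratio 731, interval 131 to 28933), as did Gm4951 (371, 66 to 14682), and the interferon-induced GTPase gene Tgtp1 had 3 (123, 41.7 to 600.2).

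The other large falls had counts in both tissues. Treml2, a receptor of the TREM family, was at 98.8, 96.7 and 90.3 CPM in spleen and 0, 1.33 and 2.08 CPM in VAT (-6.53 ± 0.60). Atp1b1, a subunit of the sodium pump, was at 1.52, 0 and 0.347 CPM in VAT and 41, 68.1 and 56.1 CPM in spleen (-6.23 ± 0.60), and at -8.19 without VAT library A. Ms4a4c (-6.03 ± 0.57) and E430014B02Rik (-5.84 ± 0.84) had VAT counts in library B alone, at 1.86 and 1.06 CPM, so that their sizes rest on that library. Slc28a2b (-6.38 ± 0.49) and the GTPase gene Iigp1 (-5.90 ± 0.51) have near-identical paralogs that may share reads, as has Tgtp1, and are uncertain. By edgeR none of the 10 genes on the spleen side passed the test of a different tissue difference at ZT12.

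The question of what was particular to lights-off was put to that test, the tissue difference at ZT12 minus its mean over the other 5 times. 1 gene of 15910 passed (0.00629%), and 1123 (7.06%) had an unadjusted p under 0.05, of which 525 lay above 0 and 598 below. DESeq2 called 18 genes, among them Dusp1, Nsg2, Phkb, Wdr25, Zw10, Coa7, Abcd4, Trf, Gm10801, Gm16638, Atf3 and Cxcl2. The others were AA467197, Csf1r, Fcna, Olfr1259, Spsb1 and Vmn2r76. With all genes that had a count, 14 passed, among them Dusp1, Nsg2, Phkb, Wdr25, Trf, Junb and Cd69. The rest were Ccdc85b, Csf1r, Eme2, Olfr1259, Pard6g, Ppp1r15a and Spsb1. Csf1r is a macrophage or monocyte marker counted above, and the part of such cells was not tested. The 1 gene of edgeR was Dusp1, a phosphatase that switches off MAP kinases and is induced by both stimulation and glucocorticoid, whose promoter is shown above.

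Dusp1 was at 7394, 5054 and 6726 CPM in VAT at ZT12, within the VAT range of the other times (5652 to 10047 CPM, median 6785) but for library B. In spleen it was at 135, 168 and 118 CPM, against 50.1 to 145 CPM with a median of 69.5 at the other times. Spleen libraries were thus in the upper part of the spleen range, and VAT and spleen did not overlap at any time. The tissue difference was 5.51 ± 0.20 at ZT12 and 6.53 ± 0.09 over the other times, smaller by 1.02 ± 0.18 at lights-off (adjusted p = 0.0432). Within spleen Dusp1 rose by 0.86 ± 0.12 at ZT12 (adjusted p = 0.000503). Within VAT its value was -0.17 ± 0.13 (adjusted p = 0.701).

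This call is a narrow one. It was lost without VAT library B (adjusted p = 0.269), VAT library D (0.136), spleen library A (0.16) or spleen library B (0.252), and with ZT8 and ZT16 alone as the other times (0.705), by edgeR's quasi-likelihood test. With the libraries of 1 letter and time as a pair, the call was also lost (adjusted p = 0.138, same test). The size ran from -0.77 to -1.14 over the alternatives. By single time, the difference was 6.87 at ZT0, 6.62 at ZT4, 6.56 at ZT8, 6.00 at ZT16 and 6.62 at ZT20, so ZT16 was the nearest to ZT12.

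**Figure D2:**
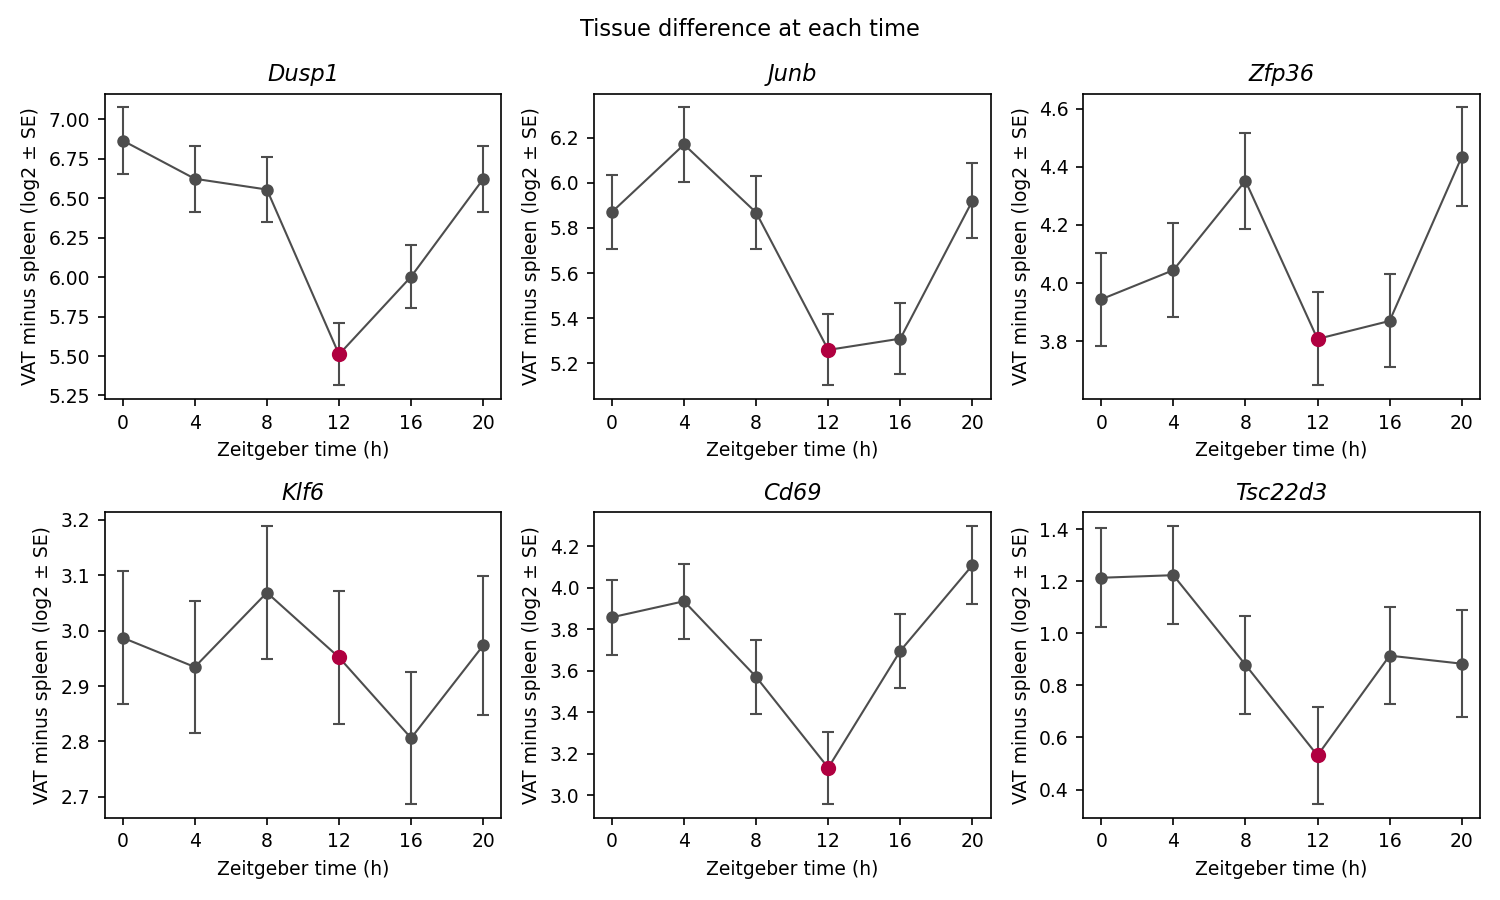
Each panel plots the log2 VAT minus spleen difference (vertical) at the 6 Zeitgeber times (horizontal), with bars for the standard error and ZT12 in red. Dusp1 was lowest at ZT12 (5.51) and passed the test; Junb, Zfp36, Klf6, Cd69 and Tsc22d3 did not, and the vertical axes do not start at 0.

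Among genes of at least 10 CPM, those next to Dusp1 by p-value did not pass by edgeR, and their values show the 3 kinds of departure. Nsg2 (chr11:32000463-32059202), a vesicle trafficking gene best known from neurons, had a smaller difference at ZT12. It was at 3.69, 5.32 and 4.86 CPM in VAT, above all 14 other VAT libraries (0 to 3.35 CPM), and at 115, 121 and 96.2 CPM in spleen. Its difference was -4.59 ± 0.34 at ZT12 and -6.56 over the other times, 1.97 ± 0.43 apart (adjusted p = 0.165 by edgeR, 0.00015 by DESeq2). Its rise within VAT passed (2.15 ± 0.38, adjusted p = 0.0254), on 51 VAT counts.

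The opposite direction was seen in Phkb (chr8:85840959-86061376), the regulatory beta subunit of phosphorylase kinase, which starts glycogen breakdown. Phkb was at 36.3, 42.5 and 58.6 CPM in VAT and 26.4, 21.8 and 19.1 CPM in spleen, higher in VAT by 1.02 ± 0.30 (adjusted p = 0.00853). Over the mean of the other times it was lower in VAT, at -0.36 ± 0.14 (adjusted p = 0.0259). By single time Phkb was at -0.75 at ZT0, -0.65 at ZT4, -0.23 at ZT8, 0.28 at ZT16 and -0.45 at ZT20. None of these passed on its own. All 3 ZT12 VAT libraries exceeded the highest other VAT library (36 CPM), and the rise within VAT passed (1.17 ± 0.22, adjusted p = 0.0281). The difference between the differences did not by edgeR (1.38 ± 0.33, adjusted p = 0.308) and did by DESeq2 (adjusted p = 0.0341).

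2 more genes passed at ZT12 and over the mean of the other times with opposite signs, Wdr25 and Zw10. Wdr25 was at 16.5, 7.44 and 4.16 CPM in VAT and 1.67, 3.26 and 2.82 CPM in spleen, where every other spleen library had at least 5.02 CPM (1.87 ± 0.51 at ZT12, -0.58 ± 0.21 otherwise). Zw10, a kinetochore and vesicle tethering gene, was at 74.7, 87.2 and 88.8 CPM against 55.7, 53.4 and 71.8 CPM (0.47 ± 0.18 and -0.29 ± 0.08). Not every other time had the opposite sign. Wdr25 was at 0.40 at ZT8 and from -1.17 to -0.31 at the rest. Zw10 was at 0.05 at ZT4, 0.16 at ZT8 and from -0.82 to -0.38 at the rest. Their changes in tissue difference did not pass by edgeR (adjusted p = 0.178 and 0.339), and DESeq2 called both.

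A larger difference at lights-off was seen in Coa7, an assembly factor of the respiratory chain, at 4.34, 6.65 and 5.55 CPM in VAT and 19, 22.8 and 23.8 CPM in spleen (-1.99 ± 0.32 at ZT12, -0.58 otherwise). Abcd4, a vitamin B12 transporter of lysosomes, was at 51, 45.5 and 45.8 CPM in VAT and 30.7, 20.5 and 31 CPM in spleen. The Abcd4 difference was larger in size and opposite in sign (0.79 ± 0.20 at ZT12, -0.09 otherwise). Trf, which encodes the iron carrier transferrin, was at 7.01, 10.1 and 8.77 CPM in spleen, below every other spleen library (12.3 to 38.8 CPM), and at 10.4, 17.5 and 14.6 CPM in VAT. The Trf difference was smaller in size and opposite in sign, at 0.71 ± 0.46 without passing at ZT12 and -1.50 otherwise. By edgeR neither Coa7 (adjusted p = 0.309), nor Abcd4 (0.337), nor Trf (0.214) passed the test of the change. DESeq2 called all 3 (adjusted p = 0.0362, 0.0336 and 0.0145). Of the remaining 4 genes, Gm10801 was at 690, 762 and 1405 CPM in spleen and 207, 245 and 241 CPM in VAT, and it belongs to a group of near-identical predicted genes whose reads can be split. Gm34455 and Gm16638 are predicted genes of under 30 CPM.

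The remaining gene of that set was Atf3, a stress-induced transcription factor. It was at 693, 867 and 668 CPM in VAT and 12, 1.95 and 0.627 CPM in spleen, where the other 15 spleen libraries ran from 0 to 0.83 CPM. Spleen libraries A and B lay above all of these and library D within them. The Atf3 value within spleen did not pass (adjusted p = 0.0528), and neither did the change in tissue difference by edgeR (adjusted p = 0.165). The change passed by DESeq2 (adjusted p = 0.00015) and without spleen library D (0.0452).

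The immediate early list, which holds Dusp1 as 1 of its members, was counted for the same direction of change. Of its 23 members, 19 were higher in VAT at ZT12, 1 (Egr2) was lower, and Dusp2, Ier5 and Myc did not pass. The 3 VAT libraries were all above the 3 spleen libraries in 20 of the 23. The list's median difference was 4.18 at ZT12 and 4.37 over the other times, and that of all genes -0.09 and -0.10. The median change over its members was -0.59, and -0.02 over all genes. In 20 of 23 members the difference at ZT12 was nearer to the spleen side than over the other times, with 1 passing and 7 at an unadjusted p under 0.05, against 8197 of 15910 genes below 0 and 7.06% at that p. Within spleen 20 of 23 members were above 0 at ZT12 (8551 of 15910 over all genes), with a median of 0.51. Within VAT 7 were above 0, with a median of -0.03. The counts describe the list, which was not tested as a set. Its members were chosen with earlier results of these data known, so the counts are not independent evidence for the Dusp1 call.

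Junb, a subunit of the AP-1 factor, was the most abundant member. It was at 17560, 16034 and 18866 CPM in VAT and 432, 470 and 468 CPM in spleen. The other spleen libraries ran from 258 to 511 CPM with a median of 329, so the ZT12 libraries lay within their range. The Junb difference was 5.26 ± 0.16 at ZT12 and 5.83 over the other times (adjusted p = 0.339 for the change). Fos was at 8077, 5215 and 4559 CPM in VAT and 33, 12.7 and 14.4 CPM in spleen. For Fos the other spleen libraries ran from 2.75 to 33.1 CPM with a median of 9.3, and the ZT12 libraries lay within that range. Jun was at 99.4, 113 and 123 CPM in spleen, against a median of 49.4 CPM, and its difference was 3.18 ± 0.39 against 4.37. Klf6, a zinc finger factor, had the same difference in both (2.95 and 2.95), and Btg2, an antiproliferative gene, 2.99 against 3.17. Zfp36, an mRNA decay factor, was at 3.81 against 4.13.

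Cd69, the early activation antigen that holds T cells in tissue, was at 4416, 3291 and 3722 CPM in VAT and 456, 465 and 383 CPM in spleen. The other spleen libraries ran from 203 to 458 CPM with a median of 289. The difference was 3.13 ± 0.17 at ZT12 and 3.83 over the other times (adjusted p = 0.339 for the change). Areg, whose promoter is shown above, was at 2323, 1667 and 3115 CPM in VAT and 5.01, 30 and 6.89 CPM in spleen. Spleen library B alone exceeded the other 15 spleen libraries (0.199 to 10.6 CPM), and the value within spleen did not pass (adjusted p = 0.0798). As a measure of VAT transcripts in spleen, 62 genes at least 50 CPM and 5 log2 units higher in VAT summed in the ZT12 spleen libraries to 1.53% to 1.73% of their VAT level, and in the other spleen libraries to 1.08% to 1.86%. The 1.86% was spleen library B of ZT16. The next highest of the other libraries was 1.48% (ZT20 B), below every ZT12 spleen library. Without immediate early genes the shares were 1.34% to 1.55% and 1.04% to 1.65%, with ZT16 B at 1.65% and ZT4 B next at 1.49%. The part of such transcripts in the spleen values was not tested.

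Within single tissues, lights-off stood apart in few genes. In spleen 10 genes passed against the other spleen times (0.0629%), 9 higher and 1 lower, and 957 (6.02%) had an unadjusted p under 0.05. In VAT 3 genes passed (0.0189%), Nsg2, Phkb and Fsd1l, all higher, and 1533 (9.64%) had an unadjusted p under 0.05. DESeq2 called 30 in spleen and 28 in VAT. Without spleen library B none of the 10 passed, and 2 genes passed without spleen library A. With ZT8 and ZT16 alone as the other times none of the 10 passed. Without VAT library B none of the 3 VAT genes passed, and without VAT library D Phkb did not. Nsg2 and Phkb were also lost with ZT8 and ZT16 alone as the other times. With the replicate letters over all times as a block, no gene passed in VAT and 7 passed in spleen.

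3 of the 10 spleen genes, Tsc22d3, Il7r and Dusp1, belong to the glucocorticoid-responsive list. Tsc22d3 (chrX:140539528-140600659), the glucocorticoid-induced leucine zipper GILZ, was at 672, 819 and 558 CPM in spleen, against 189 to 645 CPM with a median of 332 at the other times. In VAT it was at 1158, 921 and 881 CPM, against a median of 743. Spleen rose by 0.98 ± 0.13 (adjusted p = 0.000458), and the VAT value was 0.48 ± 0.14 (adjusted p = 0.252). The tissue difference was 0.53 ± 0.19 at ZT12 (adjusted p = 0.0305) and 1.02 over the other times, and the change of -0.49 ± 0.20 did not pass (adjusted p = 0.682).

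Il7r, the IL-7 receptor chain of T cell survival, was at 578, 635 and 403 CPM in spleen and 1161, 992 and 1130 CPM in VAT. It rose in spleen by 0.65 ± 0.10 (adjusted p = 0.00152), and the VAT value was 0.41 ± 0.11 (adjusted p = 0.181). The tissue difference of Il7r was 1.02 at ZT12 and 1.26 otherwise. Outside the list, Zfp36l2, which destabilises cytokine mRNA, was at 67.1, 59.9 and 51.4 CPM in spleen, above every other spleen library (up to 44.8 CPM), and rose by 0.92 ± 0.15 (adjusted p = 0.00223). Its VAT libraries, at 154, 108 and 113 CPM, gave 0.66 ± 0.15 (adjusted p = 0.0976). Xxylt1, a xylosyltransferase that extends sugars on Notch, was at 124, 152 and 116 CPM in spleen, also above every other spleen library (up to 91.9 CPM). Rsrp1 was the 1 lower gene (705, 928 and 1063 CPM, against 1117 CPM or more). Elovl4 rose to 2, 2.61 and 1.88 CPM and Gm34455 to 0.334, 2.28 and 0.627 CPM, and Gm10801 is uncertain as given above. Chl1 also passed, at 10, 0.651 and 2.51 CPM on 40 spleen counts, most of them in library A. The other spleen libraries of Chl1 reached 1.11 CPM, above library B. The Chl1 call held in 8 of 13 alternatives and was lost without spleen library A or B.

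**Figure D3:**
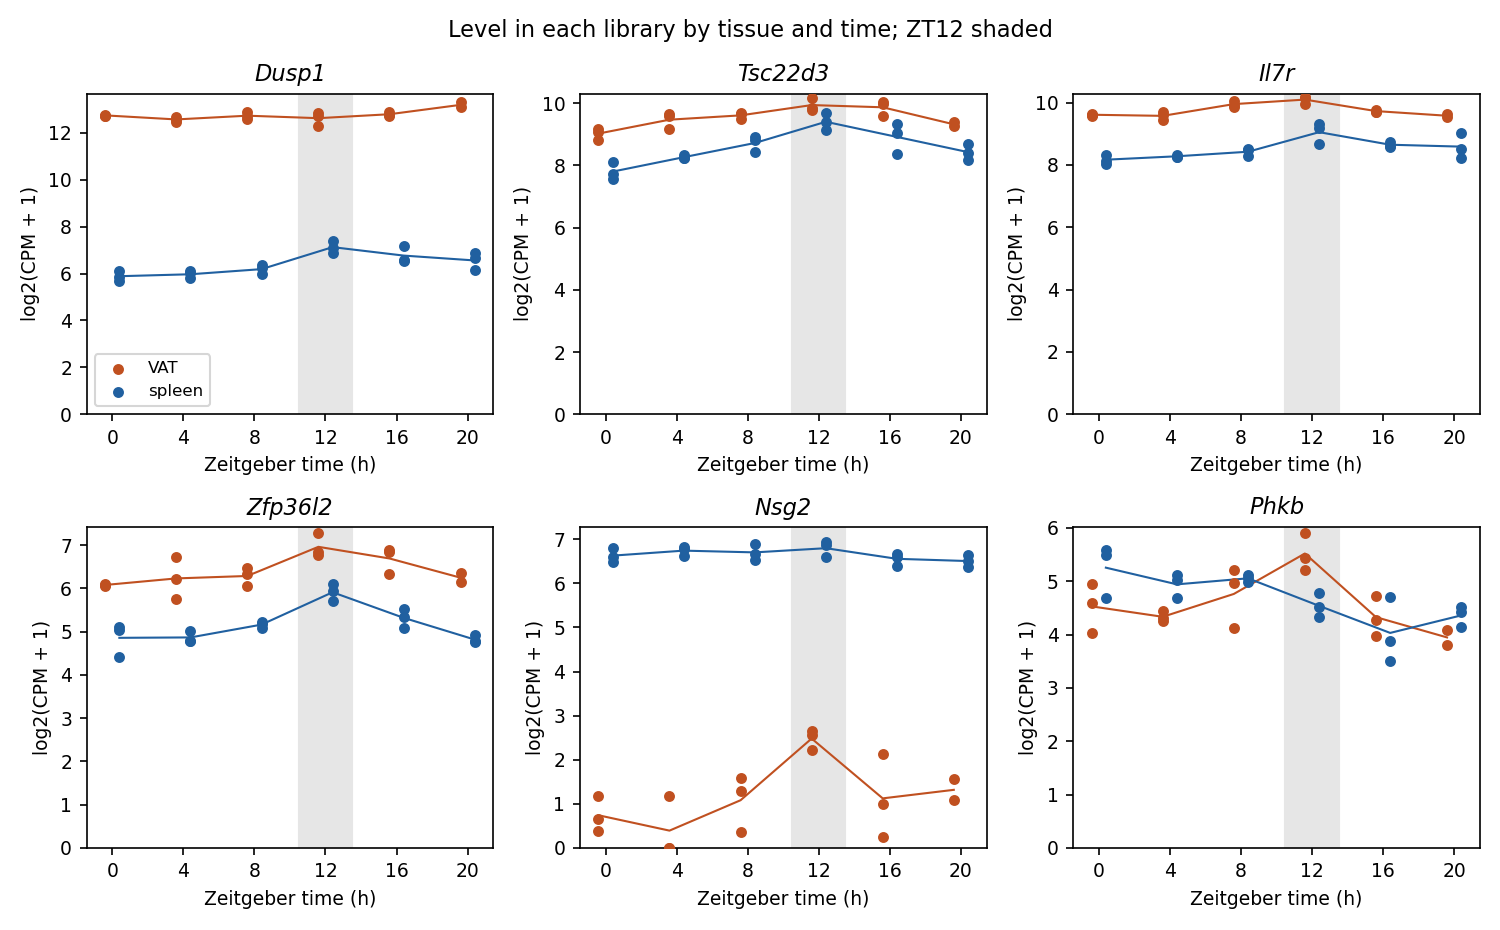
Points are single libraries of VAT (orange) and spleen (blue) at each Zeitgeber time, lines join group means, and the vertical axis is log2(CPM + 1); ZT12 is shaded. Dusp1, Tsc22d3, Il7r and Zfp36l2 were higher in spleen at ZT12 than over the other spleen times, and Nsg2 and Phkb were higher in VAT than over the other VAT times.

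Over the whole glucocorticoid-responsive list, 12 of 17 members were higher in VAT at ZT12 and 1, Pik3ip1, was lower. The median difference was 1.73 at ZT12 and 1.76 over the other times, and the median change over members was -0.32. In spleen 16 of 17 members were above 0 at ZT12 (8551 of 15910 over all genes) with a median of 0.65, and 11 had an unadjusted p under 0.05 (6.02% over all genes). In VAT 11 were above 0 (8204 of 15910) with a median of 0.41, and 8 had an unadjusted p under 0.05 (9.64% over all genes). 14 of 17 tissue differences were lower at ZT12 than over the other times (8197 of 15910). The list holds Dusp1 and was likewise chosen with earlier results known, so these counts are not independent evidence. Fkbp5, a brake on the glucocorticoid receptor, was at 106, 150 and 101 CPM in VAT and 47.1, 32.9 and 32.6 CPM in spleen, where all 3 ZT12 libraries exceeded the highest other spleen library (30.5 CPM). The difference of Fkbp5 was 1.66 ± 0.22 against 1.76 over the other times. The receptor gene itself, Nr3c1, differed by 1.73 ± 0.12 and by 1.82 over the other times. Cdkn1a, a cell cycle inhibitor, was at 401, 346 and 331 CPM in VAT against 0.334, 5.86 and 3.45 CPM in spleen, and Sgk1, a salt-regulated kinase, differed by 2.54 ± 0.31.

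In the core clock, 11 of 18 genes were higher in VAT at ZT12 and none was lower. By edgeR the genes that did not pass were Clock, Npas2, Per2, Cry2, Dbp, Bhlhe41 and Ciart. Of 14 alternatives, Arntl lost its call in 6, Nr1d2 in 7, and Cry1 and Tef in 8 each. Scaled by library totals, Per2 (-1.31, adjusted p = 0.0425) and Cry2 (-0.87, adjusted p = 0.04) passed as lower in VAT. The median difference was 1.57, and 1.23 over the other times, and the median change over members was 0.22. No clock gene passed the test of the change, and 4 of 18 had an unadjusted p under 0.05 (Arntl, Npas2, Per2 and Tef). None passed within VAT or within spleen either, where 6 and 3 had an unadjusted p under 0.05.

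Of the clock activators, Arntl, which encodes BMAL1, was at 53.4, 89.3 and 91.3 CPM in VAT and 51.7, 47.9 and 49.5 CPM in spleen. Its groups were close, at 0.64 ± 0.20 (adjusted p = 0.015), against 1.16 over the other times, and it did not pass without VAT library B (adjusted p = 0.0849), VAT library D (0.0701) or spleen library B (0.0513), nor with library totals (0.33, adjusted p = 0.206). Clock was at 34.5, 65.7 and 56.2 CPM against 46.7, 46.9 and 48.3 CPM, with overlapping groups. The nuclear receptor gene Rora, an activator of Arntl, was at 1043, 1056 and 1570.2 CPM against 79.4, 85.7 and 72.1 CPM (3.95 ± 0.18, and 4.16 otherwise). Npas2, a partner that can stand in for Clock, was under 4 CPM in every ZT12 library.

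Of the repressors, Per1 was at 267, 215 and 232 CPM in VAT, above all 14 other VAT libraries (114 to 209 CPM), and at 27, 32.6 and 32 CPM in spleen. Per1 differed by 2.96 ± 0.17 at ZT12 and 2.68 over the other times, and its VAT value against the other VAT times was 0.50 (adjusted p = 0.102). Per2 was at 3.26, 6.12 and 6.94 CPM in VAT and 16.7, 8.14 and 7.52 CPM in spleen. Its difference did not pass at ZT12 (-0.998 ± 0.51, adjusted p = 0.151), against -2.25 over the other times. Per3 differed by 2.04 ± 0.39. Cry1 differed by 0.68 ± 0.25 (adjusted p = 0.0417), a call lost without any 1 of 5 of the 6 ZT12 libraries (VAT A excepted) and at 0.30 with the length slope (the trend of level with transcript length in each library) as a covariate, while Cry2 was at -0.56 ± 0.33 without passing. Nr1d1 and Nr1d2, the genes of REV-ERB alpha and beta, differed by 2.13 ± 0.42 and 1.55 ± 0.49. Nr1d2 was uneven, at 49.1, 126 and 117 CPM in VAT and 53.1, 20.2 and 26.3 CPM in spleen, so that its groups overlapped. It was at 0.37 with the length slope (adjusted p = 0.574), and its call was lost without VAT library B or D or spleen library B or D.

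Of the output genes, Tef was at 51.5, 72.3 and 49.3 CPM in VAT and 39, 33.2 and 38.5 CPM in spleen. Tef was higher in VAT at lights-off (0.64 ± 0.24, adjusted p = 0.0383) and at 0.02 over the other times. The call was lost without VAT library B or any 1 spleen library, and with library totals (0.33, adjusted p = 0.302). The change of 0.62 ± 0.26 did not pass (adjusted p = 0.682). Its value within VAT was 0.85 (adjusted p = 0.0611). Hlf differed by 3.45 ± 0.61, Nfil3 by 4.18 ± 0.58 and Bhlhe40 by 1.60 ± 0.42. Dbp, at 23.9, 14.4 and 12.1 CPM against 8.34, 20.2 and 18.8 CPM, did not pass (0.10 ± 0.39). Bhlhe41 (3.25 ± 1.55) and Ciart (1.47 ± 0.65) were low and did not pass.

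**Figure D4:**
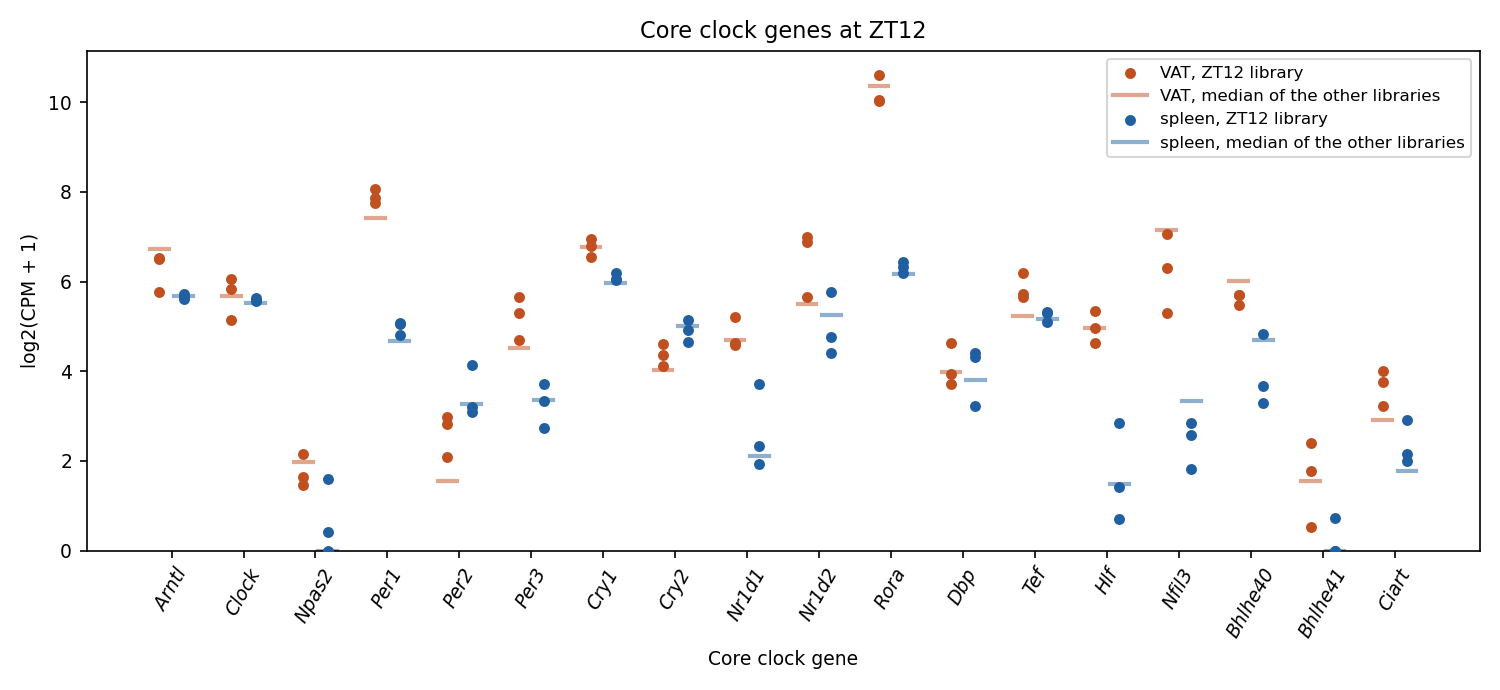
Points are the 3 VAT (orange) and 3 spleen (blue) libraries of ZT12 for each of 18 core clock genes, on a log2(CPM + 1) axis, and bars mark the median of the other libraries of the tissue. All VAT points lie above all spleen points in 11 genes, and the VAT points of Per1 lie above the bar of the other VAT libraries.

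Of 24 genes of the VAT Treg signature 21 were higher and none lower, with Cd36, Dgat2 and Gpr55 not passing by edgeR, and the median difference was 4.16 against 4.07 over the other times. Pparg was at 106, 85.1 and 145 CPM in VAT and 4, 0 and 2.19 CPM in spleen (5.74 ± 0.58). Il1rl1, the gene of ST2, was at 1350.03, 1688 and 1540.4 CPM against 13.3, 19.9 and 6.58 CPM (6.85 ± 0.31, and 7.03 otherwise). Gata3, a type 2 transcription factor, differed by 3.50 ± 0.16 (3.42 otherwise), and the chemokine receptor gene Ccr2 by 6.79 ± 0.58. Some members were put on this list for being known in fat-resident Tregs, so their direction is not independent evidence.

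The lymphoid or resting Treg list was the counterpart, with 13 of 14 members lower in VAT and only Klf2 not passing. Its median was -4.02 (-4.55 otherwise), and the median change over members was 0.003. Bach2, a repressor of effector genes, was at 2.39, 5.85 and 1.74 CPM in VAT and 64.1, 91.9 and 86.2 CPM in spleen, without overlap. Bach2 differed by -4.57 ± 0.32, the factor gene Lef1 at -2.23 ± 0.18, and S1pr1, the receptor for leaving lymphoid organs, at -2.34 ± 0.20. S1pr1 was at -1.84 over the other times, a change that did not pass (adjusted p = 0.682). Of the Treg core 8 of 16 were higher, among them Ctla4 (2.23 ± 0.14), Capg (1.61 ± 0.15) and Tnfrsf18 (1.54 ± 0.13), and 6 were lower, such as Izumo1r (-3.05 ± 0.23).

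Effector and homing genes were divided, beside 14.8% higher and 13.4% lower over all genes. Of 17 activation and effector genes tested 12 were higher and 2 lower, with Cd44 at 3.20 ± 0.17 and Maf at 2.41 ± 0.18. Of 23 trafficking receptors 10 were higher and 7 lower. In the TNF and NF-kB list 11 of 18 were higher and 2 lower, led by the inhibitor genes Nfkbid (4.25 ± 0.21), Nfkbiz (3.59 ± 0.16) and Nfkbia (3.15 ± 0.16). Nfkbid was at 4.90 over the other times, a change that did not pass (adjusted p = 0.576). Of 22 interferon response genes 14 were lower and 1 higher, with a median of -2.18 (-2.15 otherwise). Of these, Ifi47 was at -2.37 ± 0.15 and Gbp2 at -2.33 ± 0.18. Oasl1 and Oasl2 had no VAT count at ZT12, and with these genes at their bound the median of the interferon list was the same.

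Metabolic lists were mostly higher in VAT in the members that passed, beside 14.8% higher and 13.4% lower over all genes. Of 18 lipid uptake, synthesis and storage genes 7 were higher and 1 lower: Plin2, a coat protein of lipid droplets, differed by 4.83 ± 0.33, Hilpda, a lipolysis inhibitor, by 4.64 ± 0.28, Dgat1, of triglyceride synthesis, by 4.14 ± 0.27, and Lipa, the lysosomal lipase, by -0.99 ± 0.15. Sterol synthesis and uptake had 10 of 23 higher and 1 lower (Insig1 1.48 ± 0.22), fatty acid oxidation 10 of 17 and 1 (Etfb 1.57 ± 0.29), and glycolysis and hypoxia 9 of 19 and 1 (Egln3 4.53 ± 0.42). In oxidative phosphorylation no member of 24 was higher by edgeR and 5 were lower: Ndufa4 (-1.78 ± 0.28), Atp5j2 (-1.12 ± 0.23), Atp5e (-0.83 ± 0.29), Ndufa6 (-0.82 ± 0.21) and Cox7c. Atp5e lost its call in 7 of 14 alternatives, 4 of them without 1 library (VAT A, VAT B, spleen A or spleen B). With the length slope Atp5e was at -0.31 and Ndufa6 at -0.38, neither passing (adjusted p = 0.512 and 0.193). Over the other times 6 of these 24 were higher and 4 lower. In 20 of the 24 the difference was lower at ZT12 (8197 of 15910 over all genes), with a median change of -0.20 over the list, with none passing and 3 at an unadjusted p under 0.05 (7.06% over all genes). Within VAT 22 of the 24 lay below 0 at ZT12 (7706 of 15910 over all genes), with a median of -0.17.

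The stress lists were smaller in size, and their counts stand beside 14.8% higher and 13.4% lower over all genes. Of 20 unfolded protein response genes 10 were higher and 2 lower, with Atf6 at 2.95 ± 0.28 and the chaperone gene Hspa5 at 0.91 ± 0.11. Of 17 heat shock genes 7 were higher and 1, Hspe1 (-1.09 ± 0.22), was lower. Of 9 cold-inducible and splicing genes 4 were higher, with the splicing factor gene Srsf3 at 1.00 ± 0.10. In proliferation 3 of 20 were higher, Mki67 (2.17 ± 0.35), Tyms (0.80 ± 0.25) and Pcna (0.70 ± 0.16), and 1 lower, Mcm7 (-0.83 ± 0.21), beside 14.8% higher and 13.4% lower over all genes. Tyms lost its call in 4 of 14 alternatives, among them without VAT library A or spleen library A, and Pcna and Mcm7 in 1 each. The median of the proliferation list was 0.90 at ZT12 and 0.28 over the other times. Over its members the median change was 0.18 (13 of 20 above 0, against 7713 of 15910 genes). None passed the test of the change, and 2 had an unadjusted p under 0.05.

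**Figure D5:**
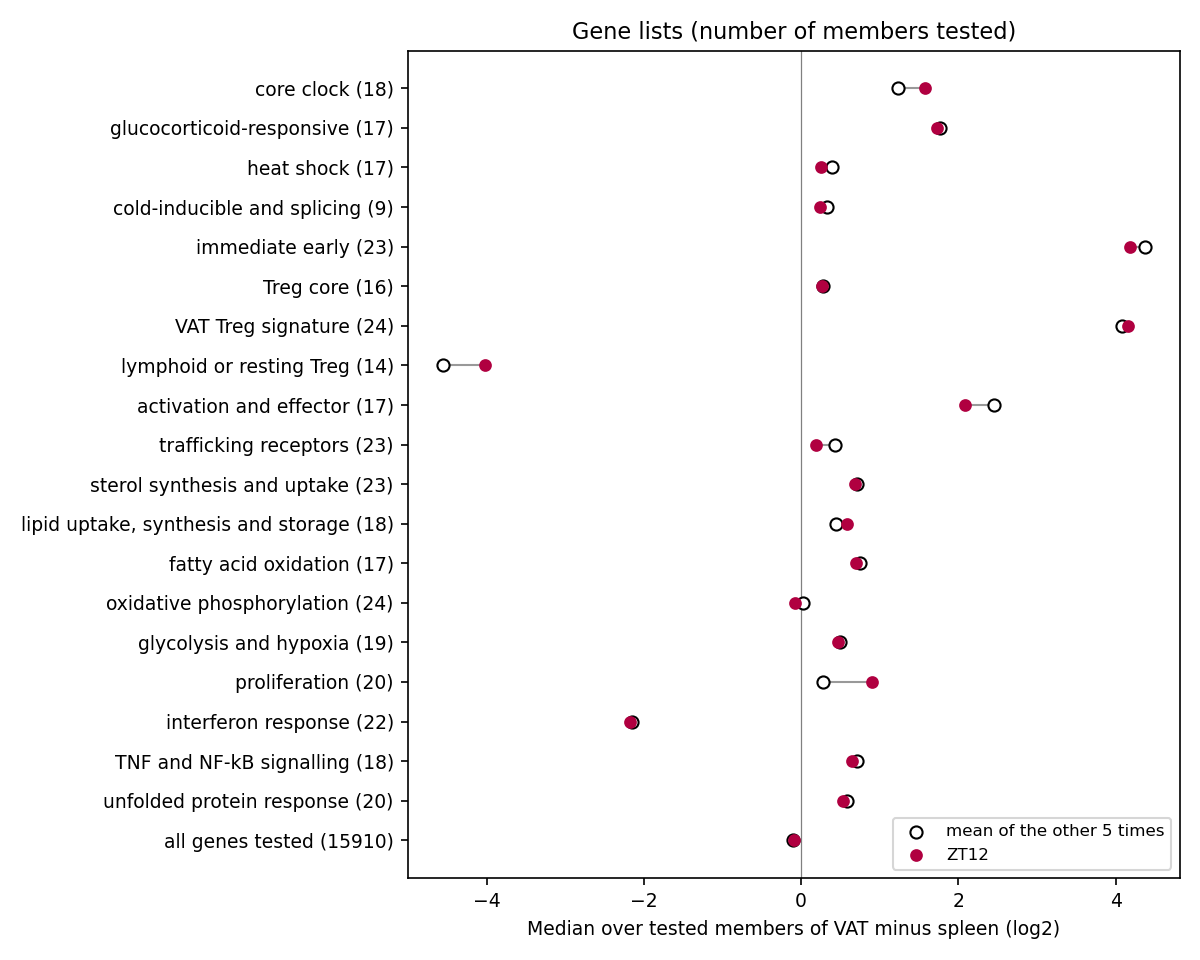
For each gene list (vertical, with the number of members tested) the filled point gives the median log2 VAT minus spleen difference at ZT12 and the open point that over the other 5 times. The median of the immediate early list was 4.37 over the other times and 4.18 at ZT12. That of the proliferation list was 0.28 and 0.90, beside -0.10 and -0.09 for all genes. The gap between 2 medians is not the median change over members, which was -0.59 and 0.18 for these lists and -0.02 over all genes.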

How the data were processed

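Each deposited value is an unnormalized read count for 1 gene symbol. The submitters' processing notes name STAR 2.7.3a, featureCounts and mm10. Annotation, strand setting and the treatment of multiply matching reads were not stated in the sources, so reads of overlapping or antisense genes may be mixed. Poly(A) RNA was amplified and tagmented, per the labels' protocols, without molecular identifiers. Genes kept by filterByExpr over 12 groups of tissue and time (15910 of 55011 symbols) were fitted with edgeR 4.0.16 (R 4.3.3) in 1 quasi-likelihood model of 35 libraries with TMM factors and 23 residual degrees of freedom, threshold 0.05. The script was tested on simulated data. Contrasts were VAT minus spleen at ZT12, the same minus its mean over the other 5 times, and ZT12 minus the other times within each tissue. DESeq2 1.42.0 and other scalings, filters, covariates and subsets were alternatives. Named genes were the 10 largest rises and 10 largest falls at ZT12 of at least 20 CPM, genes passing the change in tissue difference (as fewer than 5 passed, the 10 lowest p-values of at least 10 CPM), the 4 lowest p-values of each list, the core clock and Foxp3, Il2ra, Pparg, Il1rl1 and Gata3. Others (genes passing within a tissue, Fos, Jun, Btg2, Areg, Fkbp5, Sgk1) were chosen after their values were seen. The members and lists were chosen with earlier results of these data known. Positions are GENCODE M21 genes of GRCm38, counted from 1. Some genes that the rule names are not reported here.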

Additional observations from a re-analysis of the deposited data

Results flagged for a closer look

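The tissue difference of Dusp1 at ZT12 departed from that at the other times by -1.02 ± 0.18 on the log2 scale, past the test of the difference itself (adjusted p = 0.0432 by edgeR's quasi-likelihood test). All 3 spleen libraries of ZT12 were above the median of the other spleen libraries, and 2 of the 3 VAT libraries lay near the median of the other VAT libraries.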

How the results depend on the processing

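Library totals gave 3880 genes lower in VAT in place of 2125. The number of genes whose tissue difference changed at ZT12 was 14 with all genes that had a count, 0 with ZT8 and ZT16 as the other times, 18 with DESeq2 and 0 to 5 without 1 library. For VAT ZT12 it was 15 with library totals, 99 with all genes, 6 without ZT20, 28 with DESeq2 and 2 to 11 without 1 library. For spleen ZT12 it was 105 with all genes, 49 with the transcript-length slope as a covariate, 0 with ZT8 and ZT16, 30 with DESeq2 and 0 to 11 without 1 library. Over 17 pairs of VAT and spleen libraries of 1 letter and time, deviations from the group means correlated at -0.11 to 0.06. The labels do not say whether such a pair came from 1 mouse. With so few libraries per group these correlations cannot decide it. With the replicate block the pair within time gave 2 genes for the change in tissue difference (Gm10801 and Trf; Dusp1 adjusted p = 0.138, edgeR), and letters over all times gave 0 for VAT ZT12, so that Nsg2, Phkb and Fsd1l were lost.

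Of 1468 values of named genes for the tissue difference 1402 kept direction and side of the threshold, and 7 reversed, none of them past the threshold in the alternative (Srsf7 passed with TMM factors). Clock gave -0.18 with library totals, -0.18 with the length slope and -0.071 to 0.40 without 1 library. Dbp gave -0.21 with library totals and -0.22 to 0.31 without 1 library, and Srsf7 -0.0068 with library totals. Of 392 values for the change in tissue difference 13 reversed, none called: with ZT8 and ZT16, Bhlhe41 -1.35, Ciart -0.016, Cry2 -0.058 and Per3 -0.30. Without 1 library the change ran from -0.44 to 3.23 for Bhlhe41, -0.046 to 0.57 for Ciart, -0.25 to 0.22 for Clock, -0.98 to 0.79 for Hlf, -0.017 to 0.83 for Nfil3 and -0.97 to 0.26 for Nr1d1. The causes were not tested. Depth limits genes under about 10 CPM, where 1 library can hold most of the counts.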

Other observations

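Single libraries of ZT12 stood apart in several lymphocyte genes, picked after their values were seen. Gpr83, a receptor of resting Tregs, was at 6.95, 80.6 and 6.25 CPM in VAT, and Bcl2, the survival factor, at 33.2, 60.4 and 11.1 CPM, both highest in library B. Ier2, an immediate early gene, was at 1528, 886 and 340 CPM in VAT. In spleen the phosphatase gene Dusp2 was at 52.1, 45.6 and 190 CPM. The chemokine receptor gene Ccr1 had 2.61 CPM in spleen library B and at most 0.313 CPM in the other two.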
